A study of Mus musculus with 6 samples.

Results

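The 9 genes described here build the class I antigen presentation pathway of the mouse: Tap1, Tap2 and Tapbp, which bring peptides to class I molecules, B2m, H2-K1 and H2-D1, which form those molecules, and Psmb8, Psmb9 and Psmb10, the catalytic subunits of the immunoproteasome. They were chosen by name, as the rows with these 9 symbols among 23227 genes in each exonic table and 23231 genes in each intronic table, and all 9 were listed in the 8 tables. Total RNA depleted of ribosomal RNA was sequenced from immortalized cells of the mouse, which the labels name mesenchymal stem cells in some places and fibroblasts in others. The 6 groups were Dicer KO cells (Dicer −/−), Dicer WT cells (Dicer f/f, untransfected), Dicer WT cells over-expressing Pbx3, Sox9 or Tead4, and Dicer WT cells transfected with the vector alone. Each genotype was a single immortalized monoclonal line, so an effect of the genotype cannot be told apart from one of the clone, and all 4 transfected groups carried the f/f allele.

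A cell degrades its own proteins in the proteasome, moves some of the peptides into the endoplasmic reticulum and shows them on its surface in class I molecules, where cytotoxic T cells read them. Interferons are the best known inducers of these genes: interferon exchanges the constitutive catalytic subunits for Psmb8, Psmb9 and Psmb10, and it raises the peptide transporter and the class I chains. Stromal cells express the pathway at rest.

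The labels list 1 sample per group, but each deposited group mean was the mean of 2 libraries, whose whole reads could be recovered for every gene. The 12 libraries held 6130267 to 23501655 exonic and 3156973 to 10205497 intronic reads. Library numbers are names only. Whether the 2 libraries of a group came from separate cultures is not stated, so p-values measure the spread between these libraries, which may be technical. Levels are given as RPM, reads scaled to 1000000 exonic (or intronic) reads per library. A change is a log2 fold change from limma, fitted to the 2 libraries of each group after adding 1 to the normalised counts and taking log2, and ± gives its standard error; this scale understates the change of low genes. "Rose" and "fell" are kept for a limma adjusted p under 0.05, with Benjamini-Hochberg adjustment over all genes whose mean normalised count reached 50. Pbx3 stood at 3600 and 2820 RPM in Pbx3 libraries against 26.9 and 21.8 in vector libraries, and Tead4 at 703 and 529.8 in Tead4 libraries against 4.09 and 4.08. Sox9 stood at 21.6 and 23.3 in Sox9 libraries against 14.4 and 5.59 in vector libraries, a far smaller gain than those of Pbx3 and Tead4. In the other groups Sox9 ran from 1.53 (Dicer KO library 1) to 19.8 (Tead4 library 2). Dicer1 stood at 43.4 and 49.9 in Dicer KO libraries against 64.3 and 65.1 in Dicer WT libraries, and gene totals do not check a deletion of part of the gene. Stromal markers summed to 5637 to 11083 RPM in the 12 libraries, with Thy1 at 0 in every library. The 15 markers of blood and antigen-presenting cells summed to 6.0 to 13.8, and Emr1, Aif1, Cd3e and Nkg7 were at 0 throughout.

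Per kilobase of exon (RPKM), B2m, the light chain of every class I molecule, was the highest member in all 6 groups. Its mean ranged from 1059.9 RPKM in Tead4 cells to 1948 in Dicer WT cells. The heavy chains H2-K1 and H2-D1 came next in every group, at 152 to 642 for H2-K1 and 155 to 430.4 for H2-D1. In Dicer KO cells the order continued with Psmb8 at 122, Tapbp at 63.3, Psmb10 at 44.1, Tap1 at 25.0, Tap2 at 22.9 and Psmb9 at 16.9 RPKM, and no neighbours in that order overlapped between libraries. In Dicer WT cells Tap1 was the fourth highest at 47.0, followed by Psmb8 at 33.7, Tapbp at 27.7, Psmb9 at 19.8, Psmb10 at 15.6 and Tap2 at 10.12. There H2-K1, at 494 to 789.6, and H2-D1, at 364 to 497, overlapped, and no other neighbours did. Tap1 therefore took place 7 of 9 in Dicer KO cells and place 4 in Dicer WT cells.

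**Figure D1:**
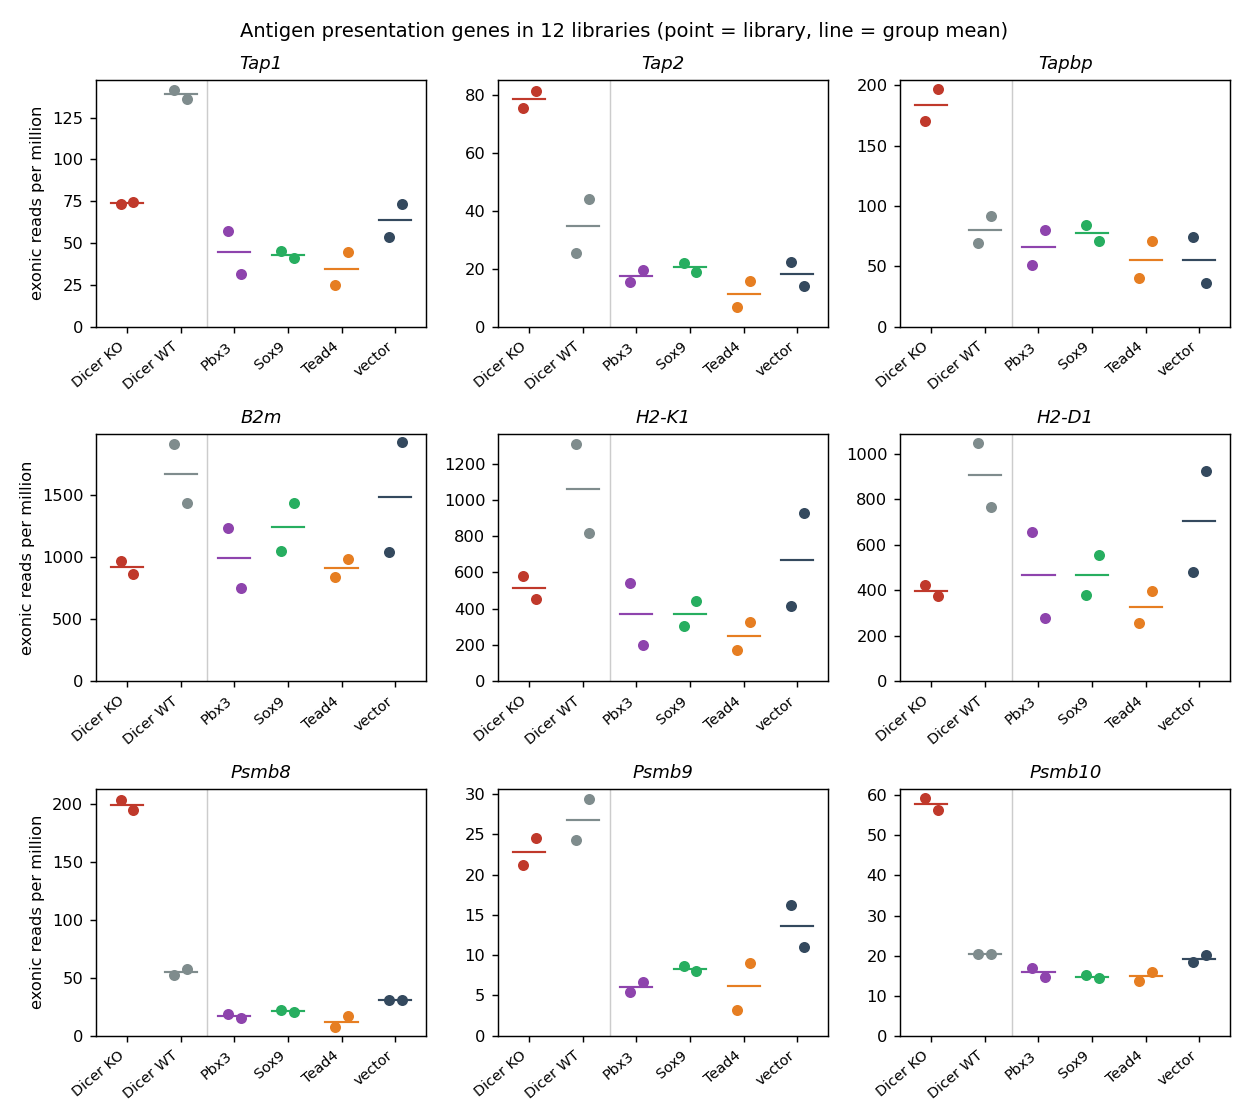
Exonic RPM (linear axis from 0) of the 9 antigen presentation genes; each point is a recovered library and each line the mean of the 2 libraries of a group. Psmb8, Psmb10, Tap2 and Tapbp lie higher in both Dicer KO libraries than in both Dicer WT libraries, and Tap1, B2m, H2-K1 and H2-D1 lie lower.

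The start regions of 8 of the 9 genes were in the RefSeq promoter table for GRCm38.p6, which holds 250 bases before and 50 bases from the start on; Tap2 was not. They are shown for a short motif, looked at with the split of the members into higher and lower values in Dicer KO cells known. Psmb9, counted as lower, did not pass the limma test in Dicer KO cells. The windows are Tap1 at chr17:34187306-34187605 on the plus strand, B2m at chr2:122147437-122147736 on the plus strand, H2-K1 at chr17:34000298-34000597 on the minus strand, H2-D1 at chr17:35262844-35263143 on the plus strand, Psmb8 at chr17:34197945-34198244 on the plus strand and Tapbp at chr17:33919228-33919527 on the plus strand. Capitals mark matches, on either strand, to the core of the interferon response element (GAAANNGAAA), the NF-kB consensus, TGACG (the core of the X2 box of class I promoters) and CCAAT (the Y box).
Tap1: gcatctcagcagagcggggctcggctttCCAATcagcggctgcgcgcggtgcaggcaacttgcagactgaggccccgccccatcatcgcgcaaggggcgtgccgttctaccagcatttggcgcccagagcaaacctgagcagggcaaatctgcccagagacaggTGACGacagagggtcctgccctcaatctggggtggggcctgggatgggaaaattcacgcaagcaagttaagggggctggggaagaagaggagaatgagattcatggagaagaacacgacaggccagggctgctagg
B2m: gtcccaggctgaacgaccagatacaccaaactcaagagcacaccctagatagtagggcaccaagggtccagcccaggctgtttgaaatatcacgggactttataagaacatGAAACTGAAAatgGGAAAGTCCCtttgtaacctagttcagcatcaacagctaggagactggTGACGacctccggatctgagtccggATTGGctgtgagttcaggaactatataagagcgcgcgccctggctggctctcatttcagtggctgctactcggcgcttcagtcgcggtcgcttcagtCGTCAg
H2-K1: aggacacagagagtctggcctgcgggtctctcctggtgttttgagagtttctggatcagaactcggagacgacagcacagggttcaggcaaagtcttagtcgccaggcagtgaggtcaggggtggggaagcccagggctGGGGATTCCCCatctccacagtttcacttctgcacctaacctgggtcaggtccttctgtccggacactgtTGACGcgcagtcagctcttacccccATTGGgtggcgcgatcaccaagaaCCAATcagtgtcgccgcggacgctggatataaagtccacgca
H2-D1: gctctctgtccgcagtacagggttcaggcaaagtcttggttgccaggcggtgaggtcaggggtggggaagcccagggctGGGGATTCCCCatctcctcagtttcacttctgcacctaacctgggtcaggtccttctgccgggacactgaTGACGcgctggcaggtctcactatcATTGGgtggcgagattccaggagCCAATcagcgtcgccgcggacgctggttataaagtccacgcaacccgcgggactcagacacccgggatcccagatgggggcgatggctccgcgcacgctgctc
Psmb8: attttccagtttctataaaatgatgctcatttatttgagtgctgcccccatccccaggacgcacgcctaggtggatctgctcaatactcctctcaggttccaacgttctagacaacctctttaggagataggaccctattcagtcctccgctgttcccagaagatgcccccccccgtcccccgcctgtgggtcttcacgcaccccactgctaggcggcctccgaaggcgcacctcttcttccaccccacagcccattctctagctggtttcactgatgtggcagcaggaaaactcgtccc
Tapbp: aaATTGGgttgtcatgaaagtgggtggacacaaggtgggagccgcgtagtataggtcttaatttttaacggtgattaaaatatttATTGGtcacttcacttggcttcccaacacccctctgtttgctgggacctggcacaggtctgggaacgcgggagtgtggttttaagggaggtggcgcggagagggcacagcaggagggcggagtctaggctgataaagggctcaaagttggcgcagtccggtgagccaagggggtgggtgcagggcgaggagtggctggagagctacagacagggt

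TGACG was found in the windows of Tap1, Psmb9, B2m, H2-K1 and H2-D1, and not in those of Psmb8, Psmb10 and Tapbp; 21.02% of 27025 windows, 1 for each gene, held it. Tap1 and Psmb9 are read in opposite directions from starts 226 bases apart, so their windows share 275 bases and the same match. The interferon response element core was found in the B2m window only, among these 8, and in 3.49% of all windows. Only exact matches were counted, so near matches, such as tttcacttct in the H2-K1 and H2-D1 windows, were left out. A window without a match is therefore not shown to lack such an element. The NF-kB consensus was found in the windows of B2m, H2-K1 and H2-D1 and in 8.18% of all windows, and CCAAT in those 3 and in Tap1, Psmb9 and Tapbp, with 37.92% of all windows. In H2-K1 and H2-D1, 214 of 239 aligned bases, or 89.5%, were identical. The gamma-activated site (TTCNNNGAA, not capitalised) was found in the Psmb8 window only, among these 8, and in 8.47% of all windows. In the Psmb10 window none of the 5 motifs was found. The motifs and the split of the members were looked at with the expression values known, a match is a description of letters, and no binding was measured.

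In Dicer KO cells the pathway moved in both directions. Of 9 members tested in exonic reads, 4 rose (Psmb8, Psmb10, Tapbp and Tap2), 2 fell (Tap1 and H2-D1) and 3 did not pass (B2m, H2-K1 and Psmb9). Among all 10706 genes tested, 16.6% passed, 9.28% higher and 7.36% lower. At an unadjusted p under 0.05 there were 8 of 9 members, where 34.2% of genes had one by limma. The median of the 9 members was −0.21 and the median of all genes 0.01, both on the log2 scale. The deposited DESeq test of the authors called the same number of members, 6, at an adjusted p under 0.05, and 14% of genes.

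Psmb8, the subunit that replaces Psmb5 in the immunoproteasome, had 203.7 and 195.1 RPM in Dicer KO libraries, against 52.6 and 57.2 in Dicer WT libraries. Both Dicer KO libraries lay above both Dicer WT libraries, and Psmb8 rose 3.67-fold, a log2 fold change of 1.88 ± 0.12 (limma adjusted p = 0.0034). Psmb10, which replaces Psmb7, had 59.4 and 56.3 RPM in Dicer KO libraries, against 20.5 and 20.4 in Dicer WT libraries, and rose by 1.52 ± 0.15 (limma adjusted p = 0.0058). The groups did not overlap, and the gap was many times the difference between the libraries of either group. Psmb9, which replaces Psmb6, had 21.1 and 24.5 RPM in Dicer KO libraries, against 24.3 and 29.4 in Dicer WT libraries. Its groups overlapped in RPM, and the log2 fold change of −0.21 ± 0.17 did not pass (limma adjusted p = 0.425), with a 95% interval of −0.65 to 0.22. The constitutive subunits Psmb5, Psmb6 and Psmb7 stood at 0.46, 0.28 and 0.24, and none of the 3 passed (1 of them at an unadjusted p under 0.05).

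Tap1 and Tap2 are the partner chains of the transporter that pumps peptides into the endoplasmic reticulum, and they went opposite ways. Tap1 had 73.4 and 74.4 RPM in Dicer KO libraries, against 141.8 and 135.9 in Dicer WT libraries, and fell by 0.89 ± 0.13 (limma adjusted p = 0.0146). Tap2 had 75.7 and 81.6 RPM in Dicer KO libraries, against 25.6 and 44.1 in Dicer WT libraries, and rose by 1.24 ± 0.25 (limma adjusted p = 0.0325). For Tap2 the Dicer WT libraries lay further apart than those of Tap1, yet both stayed below the Dicer KO libraries. Tapbp, or tapasin, which holds empty class I molecules at the transporter, had 170.2 and 196.6 RPM in Dicer KO libraries, against 69.2 and 91.4 in Dicer WT libraries. It rose by 1.22 ± 0.17 (limma adjusted p = 0.0126), with no overlap between the groups.

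The class I chains were lower in Dicer KO cells. H2-D1 had 422 and 374 RPM in Dicer KO libraries, against 1045 and 764 in Dicer WT libraries, and fell by 1.16 ± 0.21 (limma adjusted p = 0.0263). H2-K1 had 579 and 455 RPM in Dicer KO libraries, against 1307 and 818 in Dicer WT libraries. Its log2 fold change of −0.996 ± 0.29 did not pass (limma adjusted p = 0.0725), and of the 3 chains it had the Dicer WT libraries furthest apart in log2. B2m had 971 and 869 RPM in Dicer KO libraries, against 1916 and 1435 in Dicer WT libraries, at −0.84 ± 0.21 (limma adjusted p = 0.0539). For all 3 chains both Dicer KO libraries lay below both Dicer WT libraries. In bulk RNA, fewer expressing cells and less RNA per cell cannot be told apart. H2-K1 and H2-D1 are near-identical over much of their length to each other and to the H2-Q genes, and the handling of shared reads is not given in the sources used here, so the split of reads among them is uncertain. The libraries were strand-specific, but the use of strand in counting is not given either, which bears on Tap1 and Psmb9, which overlap on opposite strands in GENCODE M21, and on B2m, which overlaps Patl2. Tapbp overlaps the protein-coding gene Zbtb22 on the same strand, where strand cannot separate shared reads, so its counts may be affected as well.

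On the authors' size factors, the groups did not overlap for any of the 9 members, 4 higher and 5 lower in Dicer KO cells; 63.3% of all genes tested did not overlap, 33% higher and 30.3% lower. The calls of Psmb8 and Psmb10 passed in every alternative tried. Without Dicer KO library 1, 3 members passed (Psmb8, Psmb10 and Tapbp), where 4.89% of all genes did, and without Dicer KO library 2, 2 did (Psmb8 and Psmb10), where 5.55% of genes did, with Tap1 at limma adjusted p = 0.092 and 0.083, Tap2 at 0.107 and 0.110, and H2-D1 at 0.091 and 0.118. Tapbp stood at limma adjusted p = 0.059 without Dicer KO library 2. Without Dicer WT library 2, 8 members passed, B2m and H2-K1 among them, where 17.6% of genes did. With the order of the libraries in each pair as a term, 8 members passed, H2-K1 at limma adjusted p = 0.0003 and B2m at 0.0008 among them, but 47.2% of all genes did; that order was taken from these data, so these p-values are too small. B2m also passed when libraries were scaled by total reads (limma adjusted p = 0.035) or by the upper quartile (limma adjusted p = 0.0384). Stromal markers summed to 6294 and 5637 RPM in Dicer KO libraries against 8141 and 7289 in Dicer WT libraries. Of these markers, 4 of 11 tested fell, where 7.36% of all genes did: Col1a1 at −2.31, Ly6a at −1.17, Col1a2 at −0.96 and Col3a1 at −0.79. The call of Col1a1 held in all 12 alternatives, those of Col1a2 and Col3a1 in 10 and that of Ly6a in 8. The calls lost were those with 1 library left out. The part of these markers in the class I result was not tested. Blood and antigen-presenting cell markers summed to 6.0 and 8.50 in Dicer KO libraries against 8.96 and 8.32 in Dicer WT libraries, with Ptprc, the pan-leukocyte marker, at 0 in both groups.

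**Figure D2:**
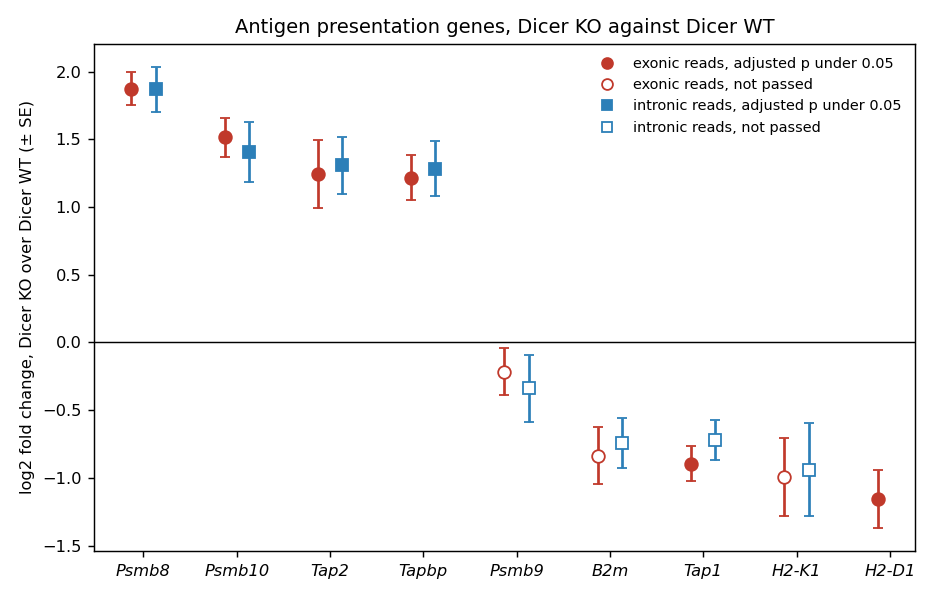
Log2 fold change of Dicer KO over Dicer WT for each member (limma, 2 libraries per group, bars are the standard error), with circles for exonic and squares for intronic reads; filled symbols passed an adjusted p of 0.05. Exonic and intronic values lie close together for each of the 8 genes measured in both, from 1.88 and 1.87 for Psmb8 to −0.996 and −0.94 for H2-K1.

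Intronic reads come mostly from unspliced RNA, and they gave nearly the same order, with Tap1 and B2m changing places. Of 8 members tested, 4 rose (Psmb8 by 1.87, Psmb10 by 1.41, Tap2 by 1.31 and Tapbp by 1.28) and 4 did not pass, where 6.51% of 10215 genes passed and 2.86% rose. The groups did not overlap for 7 of 8 members (all but Psmb9), where 57.5% of genes did not overlap. Psmb8 had 65.0 and 75.5 intronic RPM in Dicer KO libraries, against 19.0 and 18.5 in Dicer WT libraries (limma adjusted p = 0.0091). Tap1 had 39.0 and 38.0 in Dicer KO libraries, against 65.3 and 59.7 in Dicer WT libraries, without overlap, at −0.72 ± 0.15 (limma adjusted p = 0.0591). B2m stood at −0.74, H2-K1 at −0.94 and Psmb9 at −0.34. The libraries of the intronic tables are numbered on their own, so library 1 there need not be library 1 of the exonic tables. Without intronic Dicer KO library 1, Psmb8 alone passed, where 2.23% of genes did, and without intronic Dicer KO library 2 no member did, where 1.62% of genes did. With library order, taken from these data, as a term, 7 members passed, where 30.5% of genes did, with Tap1 at limma adjusted p = 0.0074, B2m at 0.0034 and H2-K1 at 0.0029. H2-D1 was listed at 0 intronic reads in all 12 libraries, while its exonic reads numbered 2606 to 24270, so it was not tested there; how its introns were defined is not given in the sources used here.

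The exonic change minus the intronic change, which asks whether mature RNA moved more than unspliced RNA, ranged from −0.17 ± 0.17 for Tap1 to 0.12 ± 0.30 for Psmb9. By limma, 0 of 8 members passed and 0 had an unadjusted p under 0.05; 0.0106% of 9402 genes passed and 4.79% had an unadjusted p under 0.05. The standard errors ran from 0.17 to 0.53, so a difference of that size would not have been detectable. The fit took exonic and intronic reads as independent libraries, though they share their samples, since no label pairs the libraries. These standard errors therefore ignore that pairing.

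Other genes of the pathway also took both directions. Over all genes tested in exonic reads of Dicer KO cells, 16.6% passed, 9.28% higher and 7.36% lower. Among 9 tested genes of peptide loading and trimming, Erap1, the aminopeptidase that trims peptides in the endoplasmic reticulum, rose by 1.92 ± 0.21 (limma adjusted p = 0.008), with 141.7 and 127.7 RPM in Dicer KO libraries against 42.2 and 30.7 in Dicer WT libraries. The translocon subunits Sec61b, at −1.19, and Sec61a1, at −0.52, fell. The other 6 did not pass, among them the chaperones Calr at −0.49, Canx at 0.33 and Pdia3 at −0.17 and the tapasin relative Tapbpl at 0.56. The list median was −0.14. The call of Sec61a1 held in only 6 of 12 alternatives. It was lost with no minimum mean (limma adjusted p = 0.057) and in the authors' DESeq test (adjusted p = 0.173). Of 9 tested genes for proteasome activators and assembly, Psme1 and Psme2, the 2 subunits of the interferon-inducible PA28 cap, rose by 1.54 ± 0.22 and 1.32 ± 0.16, and 7 did not pass. Psme1 had 70.8 and 73.1 RPM in Dicer KO libraries, against 19.9 and 31.2 in Dicer WT libraries. Without Dicer KO library 1 they stood at limma adjusted p = 0.055 and 0.067.

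Of the other class I heavy chains, 14 were tested, 5 fell, all of them H2-Q genes, none rose and 9 did not pass. The 5 were H2-Q6 at −2.16, H2-Q2 at −1.34, H2-Q1 at −1.13, H2-Q4 at −1.12 and H2-Q10 at −1.11, with a list median of −0.69. By limma, 8 of 14 had an unadjusted p under 0.05, where 34.2% of all genes had one. Among all genes tested, 9.28% rose and 7.36% fell. Hfe at 0.73, Cd1d1 at 0.58 and H2-M3 at 0.52 lay above 0 and did not pass. Reads that the H2-Q genes share with H2-K1 and H2-D1 may enter these values. H2-Q6 had 9.404 and 9.753 RPM in Dicer KO libraries, against 55.8 and 33.9 in Dicer WT libraries, and it was the only one of these 5 to pass without either Dicer KO library. Of 14 class II genes with values, 5 reached the minimum mean over both groups and were tested. Of these 5, 3 rose and none fell, with a list median of 1.49. Cd74, the invariant chain, rose by 2.41, Ifi30, a lysosomal thiol reductase, by 1.497 and H2-DMb1, a chain of the peptide editor of class II, by 1.45. The minimum lets in genes that are high in Dicer KO cells alone, as Cd74 was, so this count and median describe the tested genes only. Cd74 had 7.02 and 4.54 RPM in Dicer KO libraries, against 0.73 and 1.46 in Dicer WT libraries. Ciita, the transactivator of class II genes, had at most 0.09 RPM in any library. Without Dicer KO library 1 these 3 stood at limma adjusted p = 0.160, 0.083 and 0.069, and without Dicer KO library 2 at 0.090, 0.051 and 0.076.

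Among 22 tested regulators of class I genes, 2 rose and 1 fell, where 9.28% and 7.36% of all genes did. The 1 that fell was Nlrc5. Nlrc5 is the transactivator of class I genes, known to act on B2m, Tap1, Psmb9 and the heavy chains through the S, X and Y boxes of their promoters. It had 7.74 and 23.7 RPM in Dicer KO libraries, against 74.4 and 166.2 in Dicer WT libraries. Both Dicer KO libraries lay below both Dicer WT libraries, and Nlrc5 fell by 3.02 ± 0.60 in exonic reads (limma adjusted p = 0.032) and fell by 3.21 in intronic reads (limma adjusted p = 0.049). Without Dicer KO library 1 it stood at −2.22 (limma adjusted p = 0.054). Irf1, an interferon-induced factor known to drive Psmb9, Tap1 and class I genes, rose by 1.39 ± 0.14 (limma adjusted p = 0.006), with 112 and 104 RPM in Dicer KO libraries against 38.6 and 44.8 in Dicer WT libraries. Suz12, a subunit of a repressive histone methyltransferase, rose by 0.63, and 19 did not pass, among them Irf9 at 0.65, Rfx5 at −0.57, Nfkb1 at 0.42 and Rela at −0.03. Whether Nlrc5 or Irf1 has a part in the changes of the members was not tested.

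Of 30 listed interferon effectors, 23 reached the minimum mean and were tested. That mean is taken over both groups, so genes near 0 in Dicer WT libraries could enter through their Dicer KO reads alone. Among the 23, 18 rose and 5 did not pass, with a list median of 1.88, where 9.28% of all genes rose. Since the minimum lets in genes high in Dicer KO cells, this share and median describe the tested genes only. By log2 fold change the first 6 were Rsad2, an antiviral enzyme, at 7.39, Oas1a, a sensor of double-stranded RNA, at 5.13, its relative Oasl2 at 3.72, Ifi44 at 3.70, the guanylate-binding protein Gbp7 at 2.92 and Ifit1 at 2.86. Rsad2 had 422 and 569 reads in Dicer KO libraries against 3 and 1 in Dicer WT libraries, so its fold change depends on the added count. Of 10 tested genes of interferons, their receptors and signalling, Socs1, a feedback inhibitor, rose by 1.16 and Ifngr2, a chain of the interferon gamma receptor, by 0.87. Socs1 did not pass with no minimum mean (limma adjusted p = 0.051), under either other scaling (0.053 in both), or without Dicer KO library 1 (0.193), Dicer KO library 2 (0.265) or Dicer WT library 1 (0.068). Ifngr2 did not pass without Dicer KO library 1 (limma adjusted p = 0.153), Dicer KO library 2 (0.168) or Dicer WT library 2 (0.056), and Oas1a not without Dicer KO library 1 (0.082) or 2 (0.071). Ifnb1 had 0 reads in all 12 libraries. The lists and the members were chosen with results of these cells known, so these counts are descriptions.

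Genes around Tap1 lay on both sides of 0. In the RefSeq order for GRCm38.p6, among genes tested, the run H2-DMb1, Psmb9, Tap1, Psmb8, Tap2, Pbx2 stood at 1.45, −0.21, −0.89, 1.88, 1.24 and 0.97. In this run H2-DMb1, Psmb8, Tap2 and Pbx2 rose and Tap1 fell. Of 29 tested neighbours in the region that belong to no antigen list, 3 rose, Ppt2 by 1.03, Pbx2 by 0.97 and Vars by 0.77. None fell, and the median was −0.01, where 9.28% of all genes rose and 7.36% fell. Without Dicer WT library 1, Pbx2 and Ppt2 stood at limma adjusted p = 0.054 and 0.061, and without either Dicer KO library none of the 3 passed.

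**Figure D3:**
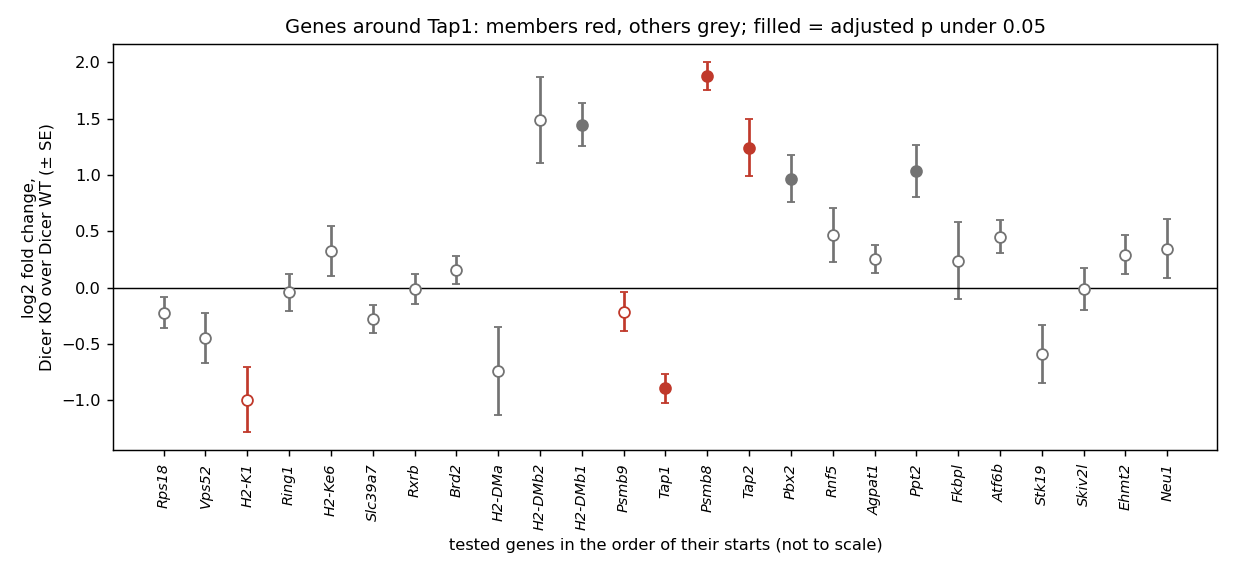
Log2 fold change of Dicer KO over Dicer WT in exonic reads (limma, bars are the standard error) for Tap1 and the 12 tested genes on either side, in gene order and not to scale; members are red, and filled points passed an adjusted p of 0.05. Tap1 at −0.89 stands between Psmb9 at −0.21 and Psmb8 at 1.88.

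The cells given Pbx3, Sox9 or Tead4 were each set against the same 2 vector libraries, so the 3 comparisons are not independent of each other, and a vector library that stands apart enters all of them. By limma, 0 of 9 members passed in exonic reads of any of the 3, where 0.0102% of 9826 genes passed for Pbx3, 0.547% of 9698 for Sox9 and 0.143% of 9796 for Tead4. The authors' deposited test called Psmb8 for Tead4 and no other member, where it called 0.132% of genes for Pbx3, 1.12% for Sox9 and 2.09% for Tead4. A p that misses the threshold does not show that a gene was unchanged.

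The vector libraries themselves lay far apart for several members. B2m had 1042 and 1934 RPM in vector libraries 1 and 2, H2-K1 had 412 and 929, and H2-D1 had 480.1 and 924. Tapbp ran the other way, at 74.7 and 36.4. Psmb8, at 30.8 and 30.4, and Psmb10, at 18.4 and 20.0, were close between the 2 libraries.

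Tead4, a DNA-binding partner of the Hippo pathway co-activators, had the lowest median of the 3. Of the 9 members, 8 were below 0, with a median of −0.93 against 0.01 for all genes; 7 had both Tead4 libraries below both vector libraries, where 24% of genes did, and 5 lay lower at an unadjusted p under 0.05, where 7.96% of genes did. Psmb8 had 7.26 and 17.2 RPM in Tead4 libraries, against 30.8 and 30.4 in vector libraries, at −1.46 ± 0.39 (limma adjusted p = 0.185); in the authors' deposited table it stood at −1.34 with an adjusted p of 0.0037. H2-K1 had 175 and 329 RPM in Tead4 libraries, against 412 and 929 in vector libraries, at −1.38 ± 0.46. Psmb9 had 3.22 and 9.0 in Tead4 libraries, against 16.3 and 11.1 in vector libraries, at −1.31 ± 0.49. The Tead4 libraries differed from each other by more than 2-fold for Psmb8 and Psmb9, and both stayed below the vector libraries. H2-D1 stood at −1.08, Tap1 at −0.93, Tap2 at −0.79, B2m at −0.66, Psmb10 at −0.39 and Tapbp at 0.02. Without vector library 1, 7 members passed (6 lower and Tapbp higher), where 24.3% of all genes did, and without vector library 2, 6 passed, all lower, where 11.8% of genes did; in both of these fits a lone vector library is assumed to vary like the Tead4 group.

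Pbx3, a homeodomain factor, gave 8 of 9 members below 0, with a median of −0.55 against −0.00 for all genes. Psmb9 had 5.45 and 6.72 RPM in Pbx3 libraries, against 16.3 and 11.1 in vector libraries, at −1.13 ± 0.29 (limma unadjusted p = 0.0097). Psmb8 had 18.4 and 15.5 in Pbx3 libraries, against 30.8 and 30.4 in vector libraries, at −0.85 ± 0.21 (limma unadjusted p = 0.0073). These 2 and Psmb10, at −0.27, were the members without overlap, all lower, where 12.5% of genes were, and 2 of 9 lay lower at an unadjusted p under 0.05, where 1.3% of genes did. For H2-K1, with 542 and 202 RPM in Pbx3 libraries against 412 and 929 in vector libraries, the groups overlapped, and its 95% interval ran from −2.41 to 0.62. Tapbp was the member above 0, at 0.30.

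Sox9, the factor of cartilage cells, gave 7 of 9 members below 0, with a median of −0.53 against −0.02 for all genes. Psmb9 stood at −0.70 ± 0.27, Tap1 at −0.56 ± 0.22 and Psmb8 at −0.53 ± 0.19, each at an unadjusted p under 0.05, where 5.77% of genes lay lower at such a p. Psmb8 had 22.3 and 20.7 RPM in Sox9 libraries, against 30.8 and 30.4 in vector libraries. Tap1 had 45.1 and 41.3 in Sox9 libraries, against 53.9 and 73.2 in vector libraries. These 3 and Psmb10, at −0.40, did not overlap with vector, all lower, where 23.4% of genes were. Tapbp stood at 0.55 and Tap2 at 0.18. Without vector library 1, 4 members passed, where 13.4% of all genes did: Tap1, H2-K1 and H2-D1 lower and Tapbp higher.

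**Figure D4:**
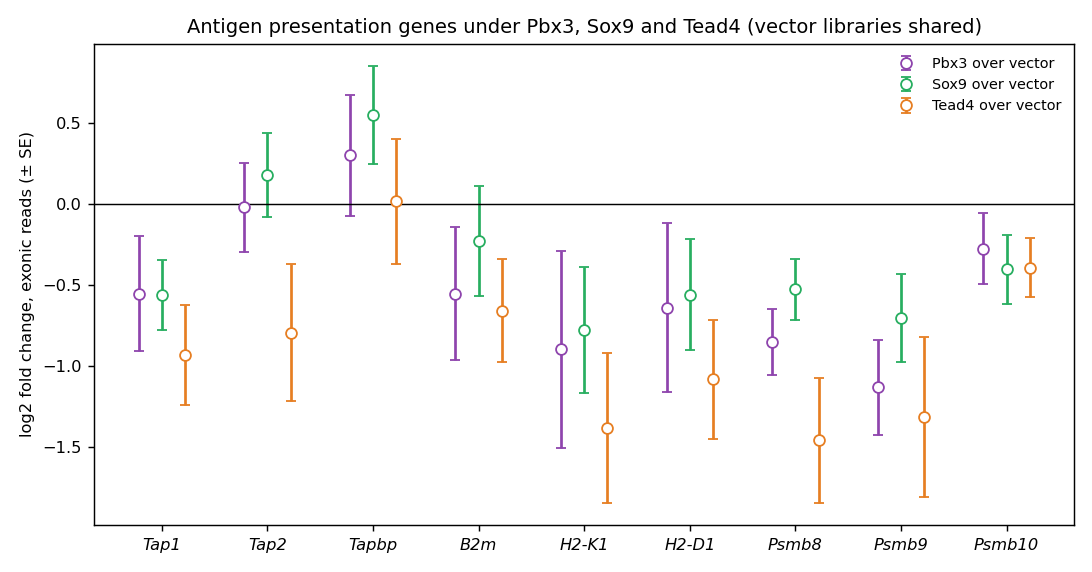
Log2 fold change over vector in exonic reads for each member in Pbx3, Sox9 and Tead4 cells (limma, 2 libraries per group, bars are the standard error, open symbols because none passed an adjusted p of 0.05). Most points lie below 0, and Psmb8 and Psmb9 do in all 3 comparisons, which share the vector libraries; Tapbp lies at or above 0.

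In intronic reads, 5 members reached the minimum mean for Pbx3 and Sox9 and 4 for Tead4, and by limma 0 passed, where 0% of 8557, 1.99% of 8361 and 1.61% of 8582 genes passed. At an unadjusted p under 0.05 there were 1, 2 and 3 members, all lower, where 1.87%, 8.29% and 7.94% of genes lay lower. The authors' test called 0 members in each, and 0.175%, 1.91% and 1.72% of genes. Tap1 was tested in all 3 and stood at −0.75 for Pbx3, −0.80 for Sox9 and −0.85 for Tead4. Its intronic reads numbered 102 and 55 in Pbx3 libraries, 62 and 57 in Sox9 libraries, 57 and 87 in Tead4 libraries and 140 and 111 in vector libraries. None of the genes on the lists above passed limma in exonic reads of a factor comparison. The other class I heavy chains had medians of −0.52 for Pbx3, −0.53 for Sox9 and −0.77 for Tead4, and Nlrc5 stood at −0.81, −0.70 and −0.44.

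The 2 libraries of a group differed in a related way over genes in all 6 groups. In exonic reads the log2 difference between library 1 and library 2, set against that of the Dicer WT pair, gave Pearson r of 0.446 to 0.647 over genes for Dicer KO, Pbx3 and Tead4, and of −0.674 and −0.476 for vector and Sox9. With the libraries of each group put in the order that correlates positively, over genes, with the Dicer WT pair, the upper exonic libraries were Dicer KO 1, Dicer WT 1, Pbx3 1, Sox9 2, Tead4 1 and vector 2. In exonic reads Tap2, Tapbp and Psmb9 were lower in the upper library of all 6 groups, Tap2 by 0.11 to 1.21 and Tapbp by 0.21 to 1.04 on the log2 scale. B2m, H2-K1 and H2-D1 were higher in the upper library of 5 groups, H2-K1 by up to 1.42 in Pbx3, and lower in Tead4, H2-K1 by 0.91. Exonic Psmb10 differed by −0.22 to 0.21. In intronic reads, where the upper Dicer KO library was library 2, Tap2 was again lower in the upper library of all 6 groups, but Tapbp was higher in that of 2 groups, by up to 0.31, and Psmb9 in that of 1, by 0.20. Intronic Psmb10 differed by −0.70 to 1.08. In Dicer WT cells Nlrc5, looked at after its values were seen, had 74.4 RPM in library 1, with 1307 of H2-K1. In library 2, with 818 of H2-K1, it had 166.2. This is 1 pair of libraries, and the pairs of the other groups are not set out here. A link of Nlrc5 to the heavy chains was not tested. What the libraries differ in is not given in the sources used here, and its part in the changes of the members was not tested.

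**Figure D5:**
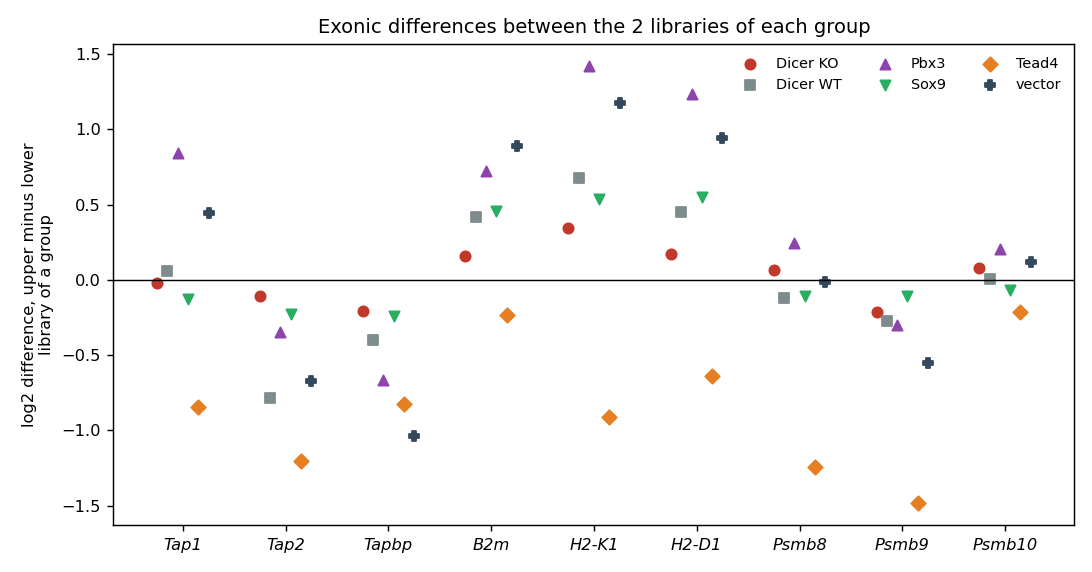
Log2 difference in exonic reads between the upper and the lower library of each group (symbols are groups) for the 9 members. In these exonic reads Tap2, Tapbp and Psmb9 lie below 0 in all 6 groups, and H2-K1, H2-D1 and B2m above 0 in all but Tead4.

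Over the 12 exonic libraries, each set of tables centred on its own mean, the members fell into patterns by likeness. As descriptions over libraries that share clones and depth, H2-D1 was most like H2-Q4 (Pearson r = 0.995), H2-Q1 (0.985) and H2-K1 (0.984) among 9748 genes. H2-K1 was most like H2-Q4 (0.988), B2m most like H2-D1 (0.965) and Tap1 most like H2-Q1 (0.963). Tapbp was most like Parp10 (0.962), Tap2 most like Tmem86a (0.950), Psmb10 most like Tex2 (0.970), Psmb8 most like Gla (0.933) and Psmb9 most like Slc43a2 (0.909). Tap1 and Psmb9, which share their start region, reached 0.62, Psmb8 and Psmb10 0.86, and Tap1 and Tap2 −0.09. Among H2-K1, H2-D1 and the H2-Q genes, shared reads may enter these values.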

How the data were processed

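The submitters' processing notes name mm9, Bowtie2 and DESeq 1.10.1, used by the authors. The signal columns of the 8 tables hold counts that the authors divided by size factors and averaged per group, per the file headers. As deposited, fold change values are a ratio of both group means, followed by its log2. The p-value columns are the authors' deposited DESeq test. The sources used here do not give the gene annotation, the exon and intron assignment or the use of strand; 0 columns were left without a group.

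Each group mean is (count 1 / size factor 1 + count 2 / size factor 2) / 2, and whole reads of both libraries were recovered for 100% of genes (tolerance 1e-09; tested on simulated data, 5000 of 5000 genes). Library 1 has the larger size factor. Vector reads differed for 0 genes among the factor tables. The log2 normalised values of the recovered libraries were fitted with limma 3.58.1 (R 4.3.3, mean-variance trend, pseudocount 1, minimum mean 50), and no count test was run on the recovered reads; the fit was tested on simulated data. Scaling by total reads or the upper quartile shifted the members' log2 changes by a median of −0.06 to 0.03.

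Members, lists and promoter motifs were chosen with earlier results of these data known. Of each list, genes that passed in exonic reads of Dicer KO were named, up to 6 by size, and others as examples chosen after their values were seen. Alternatives were the pseudocount, the minimum, scaling, a shared fit of the transfected groups, the authors' test and leaving out each library; a library-order term was added after the data were seen. Exon lengths and overlaps are from GENCODE M21, and promoters and gene order from RefSeq GRCm38.p6. The intervals are limma's at 95%.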

Additional observations from a re-analysis of the deposited data

How the results depend on the processing

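For Dicer KO, 6 members passed in exonic reads, and 6 to 8 did under other pseudocounts, minimums, scalings, the authors' test and with library order as a term; leaving out 1 library gave 2 to 8. In intronic reads 4 passed, 1 with no minimum mean, 7 with library order as a term and 0 to 6 with 1 library left out. For exonic minus intronic change, 0 passed in every alternative run. With library order as a term, exonic reads gave 6 members in the Pbx3 comparison, 6 in that of Sox9 and 3 in that of Tead4, and intronic reads gave 3, 2 and 3, against 0 without the term, where the same fits called 6.07%, 18.5% and 8.75% of all genes in exonic and 7.28%, 18.6% and 16.2% in intronic reads; for Dicer KO they called 47.2% and 30.5%. That order was taken from these data, so those p-values are too small. With 1 library left out, the Sox9 comparison gave 0 to 4 members in exonic and 0 to 1 in intronic reads, that of Tead4 gave 0 to 7 and 0 to 2, and that of Pbx3 gave 0; the authors' test gave 1 for Tead4. A shared fit of the transfected groups left all 6 factor counts at 0. A fit without a library holds fewer samples and assumes that the lone library varies like the other group; other causes were not tested. Among named genes of the lists, the authors' test did not call H2-Q4, Sec61a1 and Suz12.

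With 1 library left out, the sign turned for 12 uncalled values. In exonic reads of Pbx3 these ran from −0.32 to 0.28 for Tap2, −1.30 to 0.020 for H2-D1 and −0.18 to 0.78 for Tapbp; of Sox9, −0.11 to 0.47 for Tap2 and −0.72 to 0.26 for B2m; and of Tead4, −0.47 to 0.50 for Tapbp, which the authors' table gives as −0.0091. In intronic reads of Pbx3 they ran from −0.31 to 0.18 for Tap2 and −0.27 to 0.58 for Tapbp; of Sox9, −0.37 to 0.023 for Tap2, −0.20 to 0.62 for Tapbp and −0.52 to 0.061 for B2m; and of Tead4, −0.23 to 0.61 for Tapbp. Of the 40 gene results of Dicer KO in exonic reads, 24 lost a call without Dicer KO library 1, 22 without library 2, 8 without Dicer WT library 1 and 4 without library 2.

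No paired analysis was possible because the labels give 1 sample per group and no label pairs the recovered libraries; the library order above is a hint from the data. Depth limited the intronic tests of Psmb8, Psmb9 and Psmb10 in the transfected cells, where each had 14 to 47 reads per library. The 2 libraries per group limit every p-value, and counting error is only part of their spread.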

Other observations

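The untransfected and the vector-transfected Dicer WT cells are set against each other in none of the deposited tables, and their tables were normalised separately, so their RPM are given without a test. Vector libraries had 30.8 and 30.4 RPM of Psmb8, against 52.6 and 57.2 in untransfected Dicer WT libraries. Psmb9 had 16.3 and 11.1 in vector libraries against 24.3 and 29.4 in untransfected libraries, Tap1 had 53.9 and 73.2 against 141.8 and 135.9, and Tap2 had 22.5 and 14.1 against 25.6 and 44.1. For these 4 members, and for Psmb10 with 18.4 and 20.0 against 20.5 and 20.4, both vector libraries lay below both untransfected libraries; 27.5% of 10392 genes with a mean of at least 50 reads over these 4 libraries did so too, and 24% lay above. B2m, with 1042 and 1934 in vector libraries against 1916 and 1435 in untransfected libraries, overlapped, as did H2-K1, H2-D1 and Tapbp.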
